A study of Mus musculus with 6 samples.

Results

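The cytosolic sensors of RNA and DNA are the proteins by which a cell recognises nucleic acid in the wrong place or of the wrong form, together with the adaptors and enzymes that act directly on that recognition. The 10 genes described here were chosen by name, with earlier results of these data known. They are Ddx58, Ifih1, Dhx58, Mavs, Eif2ak2, Zbp1, Tlr3, Trim25, Sting1 (listed as Tmem173, its older symbol) and Adar. All 10 had a row among the 22186 genes of the deposited table and all had a mean over the libraries of no less than 1 TPM, so none was lost to the filter on low values. RNA was sequenced from mouse primary ADSCs, the fibroblast-like stromal cells obtained from fat, all labelled wild type (WT). There were 3 libraries of ADSCs that had shared culture with regulatory T cells for 48 h (Treg co-culture), and 3 of ADSCs kept without them (control). Libraries 1 to 3 of each group share a batch with the same number in the labels. Whether each library had its own animal or its own culture is not stated, and the spread that the p-values rest on may therefore be technical. Nor do the labels say whether the cells touched or were separated again before lysis. No group was co-cultured with another cell type, so an effect of Treg and one of co-culture as such cannot be told apart.

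RIG-I (Ddx58) and MDA5 (Ifih1) are helicases that bind double-stranded RNA in the cytosol, RIG-I preferring short RNA with a triphosphate end and MDA5 long duplexes. Both hand the signal to Mavs, an adaptor on the outer mitochondrial membrane, which activates the kinases and transcription factors that switch on type I interferon genes. Sting1, an adaptor of the endoplasmic reticulum, does the same for DNA after the enzyme cGAS has made a cyclic dinucleotide. Many of the sensor genes are themselves induced by interferon, so that stromal cells exposed to interferon carry more of them.

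TPM is a share of all transcripts corrected for their length, so levels of different genes can be set side by side, but each value depends on all the others in its library. The deposited values keep no sequencing depth, and no counting interval can be given. Of the 12405 genes whose mean reached 1 TPM, 4688 (37.8%) passed a Benjamini-Hochberg adjusted p of 0.05 in limma on the log2(TPM + 1) scale, 2234 of them (18.0%) lower and 2454 (19.8%) higher in Treg co-culture. The stromal marker Col1a2 (5926 to 6113 TPM in Treg co-culture and 6758 to 7001 TPM in control) was abundant in every library, and of the 15 stromal markers 9 fell and 4 rose, with a sum of 15061 to 15603 TPM in Treg co-culture and 16966 to 17664 TPM in control. Of 15 T cell markers, 8 were listed at 0 in every library (Cd3d, Cd3e, Cd3g, Cd4, Cd2, Cd5, Il2ra and Ctla4), Foxp3, the factor that defines Treg and named here after its values were seen, was at most 0.078 TPM, and the summed level was 4.05 to 4.47 TPM in Treg co-culture and 3.72 to 4.24 TPM in control. Of 13 macrophage markers none was at 0 in every library, and their sum, led by Lyz2, was 76.7 to 91.8 TPM in Treg co-culture and 106 to 112 TPM in control. The sum of 8 endothelial markers was 35.3 to 36.7 TPM in Treg co-culture and 40.6 to 42.6 TPM in control, with none at 0 in every library. Of 12 transcripts of adult heart and liver, Trf was at 81.9 to 101 TPM in every library. The other 11 summed to 122 TPM in Treg co-culture 1, against 1.62 and 1.72 TPM in the other 2 Treg co-culture libraries and 1.61 to 2.82 TPM in control (a sum taken after the values were seen). Albumin (Alb) alone was at 64.9 TPM in Treg co-culture 1 and at most 0.21 TPM elsewhere.

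Promoters of 7 of the 10 genes were taken from the RefSeq table of GRCm38.p6. The search left out Dhx58, Zbp1 and Sting1, so the counts of matches do not cover these genes. The 9 windows run from 250 bases before an annotated start to 50 after it. They were searched on both strands for GAAANNGAAA, the core of the interferon-stimulated response element. The match was found in 3 of the 9 windows, those of Ddx58, Ifih1 and Eif2ak2, against 3.44% of all 32851 windows and 16 of the 39 windows (41.0%) of other interferon-stimulated genes. In all 3 it lay after the annotated start. These promoters are shown 5′ to 3′ with the match in capitals, followed by that of Mavs, which holds none.
Ddx58 (chr4:40239776-40240075, minus strand): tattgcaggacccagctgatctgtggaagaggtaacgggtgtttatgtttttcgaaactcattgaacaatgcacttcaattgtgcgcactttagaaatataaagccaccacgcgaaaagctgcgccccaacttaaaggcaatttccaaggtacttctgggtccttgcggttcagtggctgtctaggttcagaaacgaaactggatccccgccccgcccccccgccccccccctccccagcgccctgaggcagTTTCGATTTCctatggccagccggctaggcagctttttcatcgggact
Ifih1 (chr2:62646206-62646505, minus strand): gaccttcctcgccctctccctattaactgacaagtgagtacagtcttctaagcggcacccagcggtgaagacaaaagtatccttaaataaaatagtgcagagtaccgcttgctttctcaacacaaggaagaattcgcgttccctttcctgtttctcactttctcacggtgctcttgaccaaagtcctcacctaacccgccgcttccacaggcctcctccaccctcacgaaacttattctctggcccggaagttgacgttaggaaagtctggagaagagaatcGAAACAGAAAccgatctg
Eif2ak2 (chr17:78882523-78882822, minus strand): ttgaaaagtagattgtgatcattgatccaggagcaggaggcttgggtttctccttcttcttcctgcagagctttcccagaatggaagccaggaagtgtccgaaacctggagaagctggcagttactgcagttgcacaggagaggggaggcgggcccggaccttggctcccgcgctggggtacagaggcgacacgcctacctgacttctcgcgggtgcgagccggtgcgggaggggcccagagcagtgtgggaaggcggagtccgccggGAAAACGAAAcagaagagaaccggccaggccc
Mavs (chr2:131233813-131234112, plus strand): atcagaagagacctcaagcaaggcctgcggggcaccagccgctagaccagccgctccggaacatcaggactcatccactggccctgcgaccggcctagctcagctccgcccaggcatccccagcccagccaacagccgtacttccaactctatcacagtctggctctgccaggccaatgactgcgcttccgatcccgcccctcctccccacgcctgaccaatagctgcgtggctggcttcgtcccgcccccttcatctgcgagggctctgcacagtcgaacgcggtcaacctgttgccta
The windows of Tlr3, Trim25 and the 3 of Adar also held no match. With the last letter left off (GAAANNGAA, a motif chosen after these sequences were seen, which covers every match of the longer one), 5 windows of 5 genes held a match, adding Trim25 and the third window of Adar, against 8.56% of all windows. A further motif, TTCNNNGAA (named GAS core), was searched in the same windows. It matched in 2 of the 9, those of Eif2ak2 and the third of Adar. This compares with 8.3% of all windows and 15.4% of those of other interferon-stimulated genes. Such matches describe the letters only and are not evidence of binding.

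Of the 10 sensor genes, 7 fell in Treg co-culture and none rose, where 18.0% of all genes tested fell and 19.8% rose. In 7 genes every co-culture library was below every control library, as was so for 24.0% of all genes tested. Those that fell were the RNA helicases Ddx58, Ifih1 and Dhx58, the ubiquitin ligase Trim25, the RNA-activated kinase Eif2ak2, the nucleic acid sensor Zbp1 and the RNA-editing enzyme Adar. The adaptors Mavs and Sting1 and the endosomal receptor Tlr3 did not pass. The median log2 difference of the 10 genes was -0.32, against 0.00 for all genes tested. In bulk RNA, fewer cells that express a gene and less of its RNA per cell cannot be told apart. The stromal, macrophage and endothelial sums given above were also lower in Treg co-culture, and their part in these falls was not tested. Most of the stromal sum came from the collagen genes Col1a1 (mean 5939 TPM in Treg co-culture and 6705 TPM in control) and Col1a2 (6020 and 6904 TPM). Of the 15 stromal markers 9 fell and 4 rose. Of the 11 macrophage markers tested Lyz2 alone passed, as lower, and of the 6 endothelial markers tested 2 fell and 1 (Kdr) rose. Without Treg co-culture 1, which held the heart and liver transcripts, the same 7 sensor genes passed as lower, from -0.81 for Zbp1 to -0.26 for Adar on the log2 scale.

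**Figure D1:**
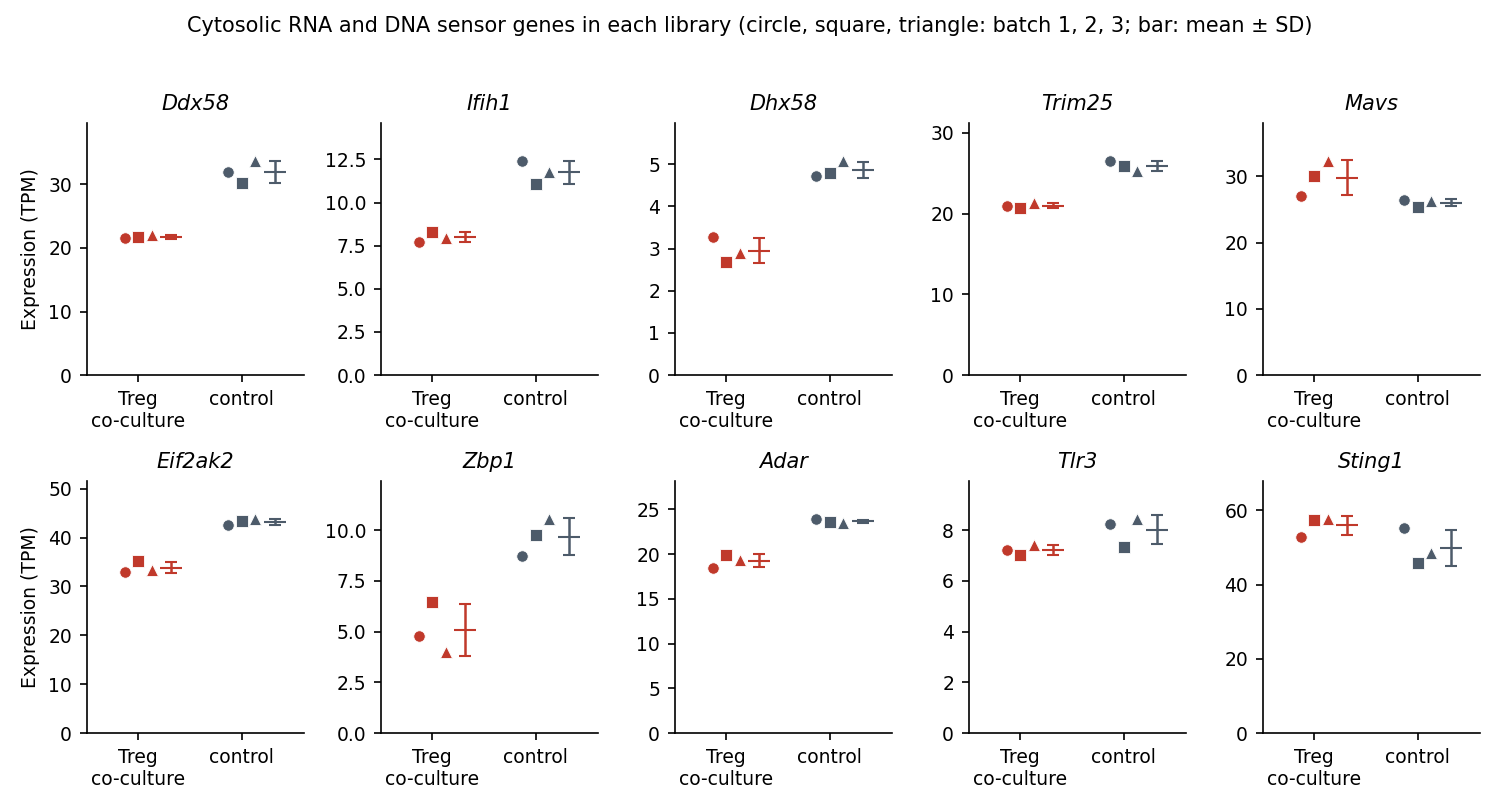
TPM of each sensor gene in every library (y axis from 0), with Treg co-culture left of control, circles, squares and triangles for batches 1 to 3 and bars for the mean ± SD (n = 3 each). For 7 genes the 3 Treg co-culture values lie below all 3 control values, for Mavs above them, and for Tlr3 and Sting1 the groups overlap.

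The helicase Ddx58 stood at 21.5, 21.7 and 22.1 TPM in Treg co-culture, against 31.9, 30.1 and 33.6 TPM in control. The 3 co-culture libraries lay within 1 TPM of each other and below every control library. Its mean was 0.682 times the control mean, a log2 difference of -0.53 (SE 0.06, limma adjusted p = 5.54e-05), the lowest p of the 10 genes. An exact two-sided permutation test of its TPM gave p = 0.1, the smallest that 3 against 3 libraries allow.

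Its sister Ifih1, which senses long RNA duplexes, was less abundant, with 7.72, 8.32 and 7.98 TPM in Treg co-culture, against 12.4, 11.1 and 11.8 TPM in control. Again the groups did not overlap, and the ratio of means (0.681) was next to that of Ddx58. The log2 difference was -0.50 (SE 0.08, limma adjusted p = 0.000783). Dhx58 (LGP2), the third helicase of the family, lacks the signalling domains of the other 2 and tunes their activity. Dhx58 was the scarcest of the 10 genes, with 3.28, 2.69 and 2.88 TPM in Treg co-culture, against 4.73, 4.79 and 5.07 TPM in control. Every co-culture library was below every control library, at a ratio of means of 0.607 and a log2 difference of -0.57 (SE 0.11, limma adjusted p = 0.00283). The 95% intervals of the 3 helicases, -0.66 to -0.40 for Ddx58, -0.68 to -0.32 for Ifih1 and -0.82 to -0.32 for Dhx58, overlapped, and whether their falls differ was not tested.

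Trim25, a ubiquitin ligase that modifies RIG-I and aids its signalling, had 20.9, 20.7 and 21.3 TPM in Treg co-culture, against 26.5, 25.9 and 25.2 TPM in control. The groups were apart with little spread in either, and the log2 difference was -0.29 (SE 0.05, limma adjusted p = 0.00204). Mavs had 27.0, 30.0 and 32.3 TPM in Treg co-culture, against 26.4, 25.4 and 26.3 TPM in control. The co-culture values lay above all control values, which was also so for 25.3% of all genes tested, but the gap in batch 1 was small. The log2 difference of 0.18 (SE 0.07, 95% interval 0.03 to 0.33) missed the threshold (limma adjusted p = 0.0550). Without Treg co-culture 1, which had the high heart and liver sum (a link that was not tested), it was 0.25 and passed (limma adjusted p = 0.0159). It passed with no other single library left out, and ran from 0.13 to 0.25 over these fits. So the adaptor on which Ddx58 and Ifih1 converge was not lower with them.

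Eif2ak2 (PKR) is a kinase that binds double-stranded RNA and phosphorylates the initiation factor eIF2, which stops most translation. It was the most abundant of the genes that fell, with 33.0, 35.2 and 33.4 TPM in Treg co-culture, against 42.6, 43.5 and 43.7 TPM in control. The groups were well apart, and the log2 difference was -0.35 (SE 0.05, limma adjusted p = 0.000267). Adar, which turns adenosine into inosine in double-stranded RNA and so keeps self RNA from the sensors, had 18.5, 19.9 and 19.3 TPM in Treg co-culture, against 23.9, 23.6 and 23.5 TPM in control. The control libraries were nearly level and all above the co-culture libraries, at a log2 difference of -0.29 (SE 0.06, limma adjusted p = 0.00307). Adar gives an interferon-induced long form and a constitutive short form, and the values per gene do not separate them.

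Zbp1, which binds left-handed nucleic acid and can start necroptosis, had the largest log2 difference, and the largest SE, of the genes that fell. It stood at 4.79, 6.46 and 3.98 TPM in Treg co-culture, against 8.73, 9.76 and 10.5 TPM in control. The groups did not overlap although Treg co-culture 2 was well above Treg co-culture 3, and the mean was 0.525 times the control mean. The log2 difference was -0.83 (SE 0.14, limma adjusted p = 0.00125), a place at percentile 1.10 of all genes tested, and it ran between -0.99 and -0.70 when single libraries were left out. By the distance between centred log2(TPM + 1) profiles over the 6 libraries, the nearest of 10257 named genes whose mean reached 5 TPM were C1qtnf7 (root-mean-square distance 0.10), Cilp (0.12), A4galt (0.12), Rgma (0.13) and Gdf10 (0.13).

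Tlr3, the receptor for double-stranded RNA in endosomes, had 7.22, 7.03 and 7.43 TPM in Treg co-culture, against 8.26, 7.35 and 8.42 TPM in control. Control 2 fell within the co-culture range, and the log2 difference of -0.13 (95% interval -0.33 to 0.07, limma adjusted p = 0.284) leaves both a small rise and a fall like that of Adar possible. Sting1 was the most abundant of the 10 genes in both groups, with 52.9, 57.4 and 57.6 TPM in Treg co-culture, against 55.4, 45.7 and 48.6 TPM in control. Control 1 was above Treg co-culture 1, so the groups overlapped, and the log2 difference was 0.17 (SE 0.07, 95% interval 0.01 to 0.32, limma adjusted p = 0.0806). Without control 1 it was 0.24 and passed (limma adjusted p = 0.00960). It passed with no other single library left out, and ran from 0.11 to 0.24 over these fits.

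For the 7 genes that fell every co-culture library was below every control library, so each was by necessity lower within each of the 3 batches. The log2 differences per batch ran from -0.59 to -0.45 for Ddx58, from -0.62 to -0.38 for Ifih1, from -0.65 to -0.42 for Dhx58 and from -1.21 to -0.53 for Zbp1. For Eif2ak2 they ran from -0.38 to -0.30, for Trim25 from -0.32 to -0.23 and for Adar from -0.35 to -0.23. Tlr3, which did not pass, was also lower in each batch, by -0.17, -0.06 and -0.16. The share of all genes that were lower in each batch was not counted. Mavs stood at 0.03, 0.23 and 0.28 in batches 1 to 3, and Sting1 at -0.06, 0.32 and 0.24, so that batch 1 was the lowest for both adaptors.

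**Figure D2:**
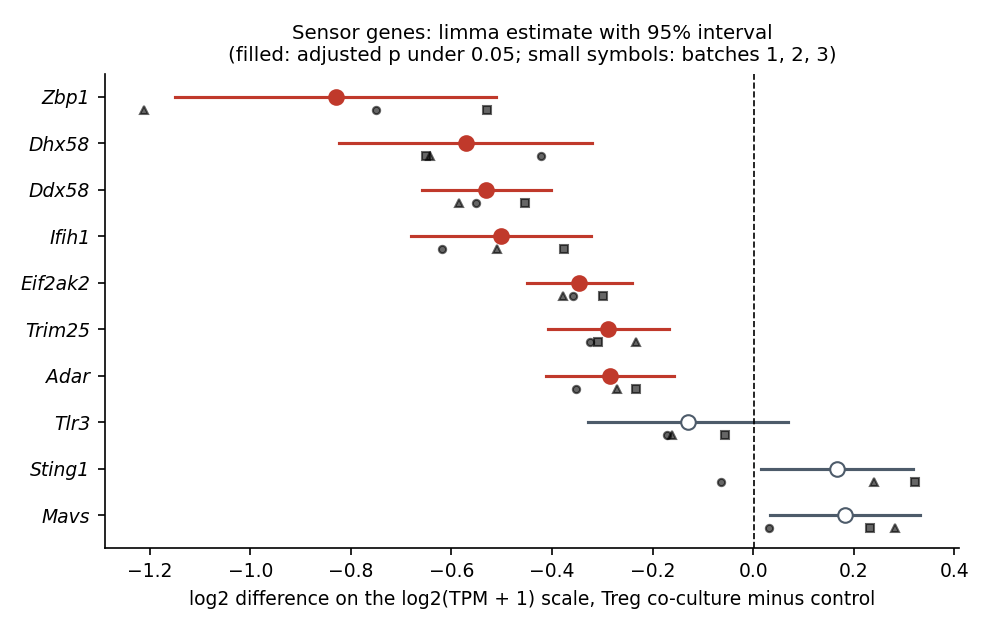
Log2 difference of each sensor gene on the log2(TPM + 1) scale, Treg co-culture minus control, as limma's estimate with its 95% interval, filled where the adjusted p is under 0.05, with small symbols for the difference within batches 1 to 3 and a dashed line at the median of all genes tested. The 7 filled estimates run from -0.83 for Zbp1 to -0.29 for Adar, and Mavs and Sting1 sit right of the line at 0.18 and 0.17.

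The order of the genes by level changed in 2 places between the groups. In Treg co-culture the order by mean TPM was Sting1 (56.0), Eif2ak2 (33.8), Mavs (29.8), Ddx58 (21.8), Trim25 (21.0), Adar (19.2), Ifih1 (8.004), Tlr3 (7.22), Zbp1 (5.07) and Dhx58 (2.95), and the ranges of neighbours did not overlap. In control it was Sting1 (49.9), Eif2ak2 (43.3), Ddx58 (31.9), Mavs (26.1), Trim25 (25.9), Adar (23.7), Ifih1 (11.8), Zbp1 (9.67), Tlr3 (8.01) and Dhx58 (4.86), where Mavs and Trim25 overlapped. Ddx58 was thus below Mavs in every co-culture library and above it in every control library, and Zbp1 was below Tlr3 in co-culture and above it in control.

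A ratio of 2 genes within a library does not depend on how that library was scaled. Ddx58 per Mavs was 0.795, 0.724 and 0.684 in Treg co-culture, against 1.21, 1.19 and 1.28 in control. Ifih1 per Mavs averaged 0.270 ± 0.020 in Treg co-culture and 0.451 ± 0.016 in control (SD, n = 3 each). Of 9 such ratios, 8 were lower in every co-culture library than in any control library, Tlr3 included, and the exact two-sided permutation test gave p = 0.1 for each (0.113 after Benjamini-Hochberg adjustment over the 9), the smallest raw p that this design allows. The ratio of the 2 adaptors did not separate the groups, with Sting1 per Mavs at 1.89 ± 0.09 in Treg co-culture and 1.91 ± 0.16 in control (SD, n = 3 each, exact permutation p = 0.8). Mavs itself was higher in every co-culture library than in any control library, which lowers each ratio. The 7 genes that fell were themselves lower in every co-culture library. The separation of their ratios, and the permutation p of 0.1, thus followed by necessity and add nothing to their own TPM. Tlr3, whose own TPM overlapped between the groups, was separate only as a ratio. How many of all genes would separate the groups when divided by Mavs was not counted.

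**Figure D3:**
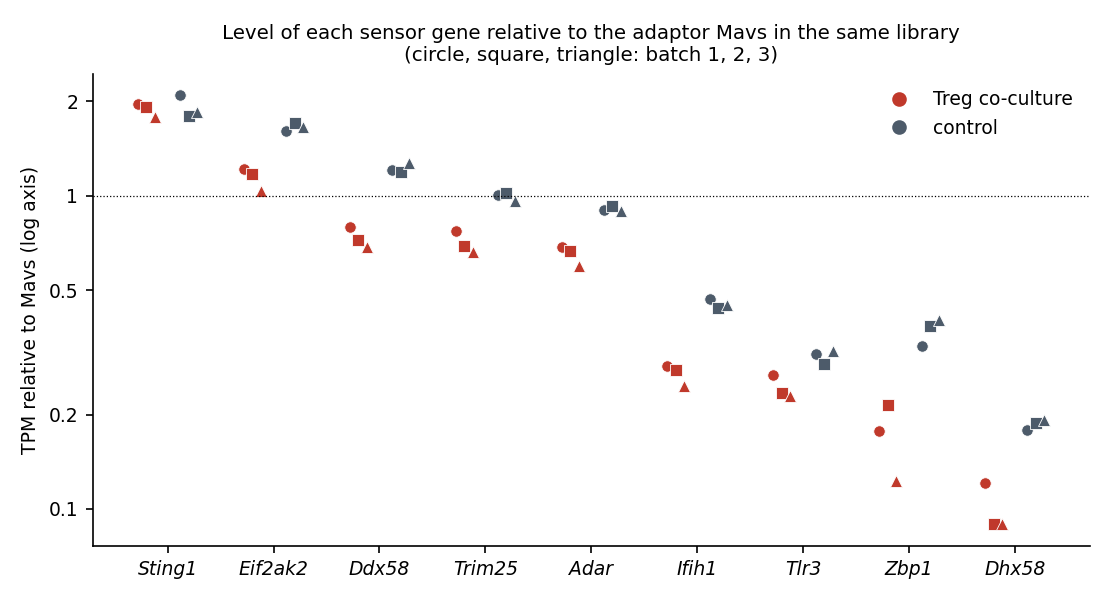
TPM of 9 sensor genes divided by the TPM of Mavs in the same library (log axis), with Treg co-culture left of control for each gene and circles, squares and triangles for batches 1 to 3. Ddx58 lies between 0.684 and 0.795 in Treg co-culture and above 1 in control, while the ratios of Sting1 overlap between the groups.

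The rest of the sensing pathway and other interferon-stimulated genes were taken from 10 lists. These were chosen with earlier results of these data known, so their shares are not independent of the data. Their union without the 10 sensor genes had 184 genes tested. Of these 52 (28.3%) fell and 37 (20.1%) rose, where 18.0% of all genes tested fell and 19.8% rose. The share of the 184 that rose was thus near that of all genes. Other interferon-stimulated genes, some of which stand in another list too, made up 36 of the 184 and 29 of the 52. Among the other lists the share that fell ran from 0% of the 4 interferon and cytokine genes tested to 35.7% of the genes around the endosomal receptors. A single value in parentheses after one of these genes is its log2 difference, Treg co-culture minus control, on the log2(TPM + 1) scale, and "rose" or "fell" means a limma adjusted p under 0.05. Among other interferon-stimulated genes 29 of 36 (80.6%) fell, against 18.0% of all genes tested, and none rose, against 19.8%, with a median log2 difference of -0.59. The lowest p-values of that list belonged to Lgals3bp, Ifit3, Ifit1 and Ifi27. The secreted glycoprotein gene Lgals3bp had 193 ± 3.86 TPM in Treg co-culture and 280.1 ± 7.001 TPM in control (SD, n = 3 each). Ifit1, whose protein binds RNA and blocks translation, had 4.14 ± 0.282 TPM in Treg co-culture and 13.8 ± 1.49 TPM in control (SD, n = 3 each). The log2 differences were -1.53 for Ifit3, -1.52 for Ifit1 and -0.47 for Ifi27. Ifit3 has a near-identical copy, and its separate value is uncertain.

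The signalling chain below Mavs, Sting1 and Tlr3 had 25 genes tested, of which 2 fell, 3 rose and 20 (80.0%) were not called, against 62.2% of all genes tested, with a median of -0.04. The shares that fell (8%) and rose (12.0%) were below the 18.0% and 19.8% of all genes. The kinase Tbk1, which both adaptors recruit and which was named after its values were seen, had 25.8, 25.6 and 30.5 TPM in Treg co-culture, against 29.2, 29.4 and 27.2 TPM in control, so the groups overlapped. Its substrate Irf3, named likewise, had 30.3, 26.7 and 32.8 TPM in Treg co-culture, against 26.3, 29.2 and 26.9 TPM in control, likewise overlapping. Irf7, the interferon-inducible partner of Irf3, fell to 7.42, 6.41 and 6.10 TPM in Treg co-culture, against 15.9, 14.6 and 19.5 TPM in control (log2 difference -1.20, SE 0.11, limma adjusted p = 2.03e-05). The kinase Ripk1 fell (-0.20) but did not pass without Treg co-culture 1 or without control 1, where 1 gene of the list was lower. The chaperone Hsp90aa1 (0.27) and the mitochondrial import receptor Tomm70a (0.24), a docking site for Mavs signalling, rose.

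Of 22 cofactors of the RIG-I-like receptors, 7 (31.8%) rose and 2 (9.09%) fell, against 19.8% and 18.0% of all genes tested, with a median of 0.03. The helicase Ddx21 rose (108 ± 3.13 TPM in Treg co-culture and 79.3 ± 1.55 TPM in control), as did the chaperone proteins of the 14-3-3 family Ywhah (0.22) and Ywhae (0.15), which carry RIG-I and MDA5 to the mitochondrion, and the phosphatase Ppp1ca (0.14), which activates both sensors. A single cofactor (1) was lower when either Treg co-culture 1 or Treg co-culture 3 was left out. Of 24 negative regulators, 6 fell and 6 rose (25% each), not far from the 18.0% and 19.8% of all genes tested. Usp18, which strips the modifier Isg15 from proteins and blocks interferon receptor signalling, fell to 5.13 ± 0.614 TPM in Treg co-culture, against 11.2 ± 0.210 TPM in control (mean ± SD, n = 3 each), and Isg15 fell by 0.69 on the log2 scale. Both are also interferon-stimulated genes and stand in that list too. The ubiquitin ligase Smurf1 (0.26) and the Mavs-binding Pcbp1 (0.17) rose.

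**Figure D4:**
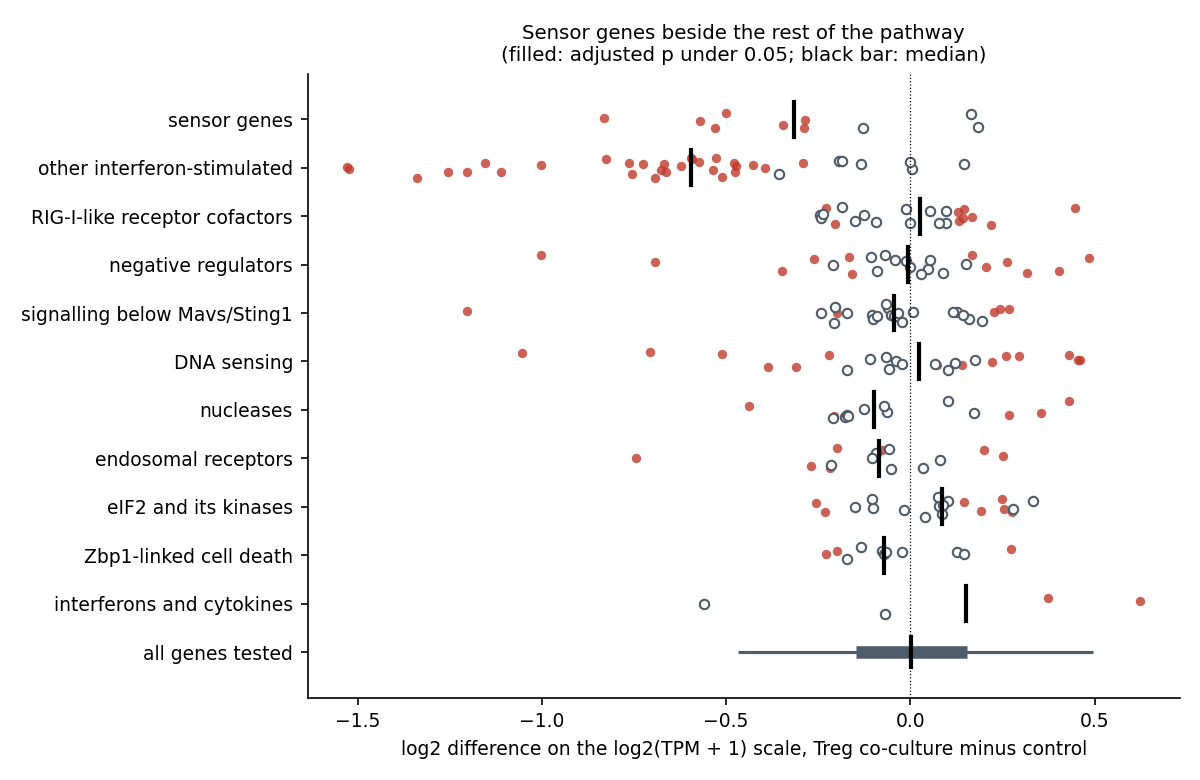
Log2 difference on the log2(TPM + 1) scale, Treg co-culture minus control, of each tested gene of the sensor set and of 10 pathway lists, filled where the limma adjusted p is under 0.05, with a black bar at each list's median. The bottom row gives the 5th to 95th percentile (-0.47 to 0.50, thin) and the middle range (25th to 75th percentile, -0.15 to 0.15, thick) of all genes tested. The medians of the sensor genes (-0.32) and of other interferon-stimulated genes (-0.59) lie left of that middle range, and those of the other 9 lists lie within it.

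In the DNA arm, 6 of 24 genes tested (25%) fell and 8 (33.3%) rose, against 18.0% and 19.8% of all genes tested. Cgas, the enzyme that makes the ligand of Sting1, was scarce and rose, with 4.06, 4.68 and 4.97 TPM in Treg co-culture, against 3.14, 2.63 and 3.38 TPM in control (log2 difference 0.46, limma adjusted p = 0.0151). It was named after its values were seen. The groups did not overlap, and the direction was opposite to that of the RNA helicases. Of the interferon-inducible DNA-binding genes, Ifi205 fell to 13.8 ± 2.21 TPM in Treg co-culture, against 29.5 ± 1.33 TPM in control, and Ifi203 to 8.31 ± 0.334 TPM in Treg co-culture, against 14.2 ± 0.742 TPM in control (mean ± SD, n = 3 each). They belong to a family of near-identical copies, so their separate values are uncertain. The DNA-binding nuclear protein Hmgb2 (0.46) and G3bp1 (0.30), a stress granule protein that aids cGAS, rose.

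Among genes that remove or limit nucleic acid, 2 of 14 (14.3%) fell and 3 (21.4%) rose, about the shares of all genes tested (18.0% and 19.8%). The lysosomal DNase Dnase2a (-0.44) and the dNTPase Samhd1 (-0.21) fell, and the mitochondrial RNA exonuclease Pnpt1 (0.35) and the histone mRNA factor Lsm11 (0.43) rose. Of 14 genes around the endosomal receptors, 5 (35.7%) fell and 2 (14.3%) rose, against 18.0% and 19.8% of all genes tested, and 1 was higher without Treg co-culture 3 and likewise without control 3. The proteases Ctss (-0.75), Lgmn (-0.27) and Ctsl (-0.20) fell, and the chaperone Hsp90b1 (0.20), which folds these receptors, rose. The other nucleic acid receptors of endosomes, Tlr7, Tlr8, Tlr9 and Tlr13, named after their values were seen, were below the filter, at no more than 1.04 TPM in any library, so Tlr3 was the 1 receptor of this kind that could be tested.

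Of 19 genes of the eIF2 axis around Eif2ak2, 5 (26.3%) rose and 2 (10.5%) fell, near the 19.8% and 18.0% of all genes tested, with a median of 0.09. The eIF2 alpha subunit Eif2s1 had 101 ± 2.46 TPM in Treg co-culture and 83.0 ± 2.74 TPM in control, and the gamma subunit Eif2s3x had 176 ± 4.04 TPM in Treg co-culture and 148 ± 5.18 TPM in control (mean ± SD, n = 3 each). Both rose, as did Eif2b1 of the exchange factor (0.25). The stress transcription factor Ddit3 fell (-0.26). Transcript levels do not measure phosphorylation or translation.

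Of 11 cell death genes linked to Zbp1, 1 (9.09%) rose and 2 (18.2%) fell, the share that fell being that of all genes tested (18.0%) and the share that rose below theirs (19.8%). Ripk3, the kinase that Zbp1 recruits, had 73.6, 77.6 and 80.4 TPM in Treg co-culture, against 60.7, 63.3 and 67.2 TPM in control, and rose by 0.27 (SE 0.05, limma adjusted p = 0.00160). Its direction was thus opposite to that of Zbp1. Ripk1 (-0.20) and the pore-forming Gsdmd (-0.23) fell and Casp8 (0.13) did not pass. No gene of the list was lower without control 1, 1 was lower without Treg co-culture 1, Treg co-culture 2 or control 3, and 2 were higher without Treg co-culture 2. With no filter on low values 1 was lower and 2 were higher, without eBayes trend 1 was lower, and at an adjusted p of 0.01 none was lower, and Gsdmd lost its call in all 3 of these settings, Ripk1 only at the stricter threshold.

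The 8 interferon genes with a row in the list, Ifnb1, Ifna1, Ifna2, Ifna4, Ifna5, Ifnl2, Ifnl3 and Ifne, were listed at 0 in every library. With no depth given, the level below which they would go unseen is unknown. Among the 4 cytokines of the list that could be tested, Il6 had 17.9, 19.1 and 20.9 TPM in Treg co-culture, against 12.3, 10.8 and 13.4 TPM in control, and rose (0.62). Ccl2 also rose (0.37). Cxcl10 had 0.921, 3.14 and 1.22 TPM in Treg co-culture, against 3.57, 2.68 and 2.35 TPM in control, and passed as lower without Treg co-culture 2 (-0.89, limma adjusted p = 0.00619) but not with it (-0.56, limma adjusted p = 0.122). Il15 was near even, at -0.07 (limma adjusted p = 0.838).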

How the data were processed

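Expression was deposited by the authors as TPM, 1 row per gene and 1 column per library, per the file headers. GRCm38, mm10 and GRCm39 appear in the submitters' processing notes without saying which was used for what. Aligner, counter, annotation and strand setting: not given in the sources used here. Sequencing depth cannot be recovered from TPM. All columns belonged to the 6 libraries, and 0 were of no sample. Of the rows, 21992 (99.1%) matched a symbol in the RefSeq table of GRCm38.p6, used for names, and Sting1 matched through its older symbol. Of 326 names in all lists 9 had no row and are not analysed here. Promoter windows are RefSeq's, with that table's build.

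Differences were tested in R 4.3.3 by limma 3.58.1 (lmFit, then eBayes with trend) on log2(TPM + 1) of the deposited values, a scale that understates changes of low genes, over genes whose mean reached 1 TPM, with Benjamini-Hochberg adjustment over all 12405 and a threshold of 0.05. SE and 95% intervals are limma's moderated ones. Python 3.11.15 with pandas 2.3.3, scipy 1.17.1 and matplotlib 3.10.9 was used for permutation tests over the 20 arrangements, motif searches and plots. Coding genes overlapping the 10 loci reached at most 0.814 TPM.

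The members and lists were chosen with earlier results of these data known. Named genes are the 10 members, up to 4 genes per pathway list with the lowest adjusted p, markers of highest TPM or at 0, and the 5 nearest profiles of the called member with the largest difference; others are said to be named after their values were seen.

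Libraries of 1 number share a batch in the labels, and this pairs them. Across genes, deviations from the group means correlated between libraries of 1 number at 0.0115, -0.0146 and 0.004. A fit with batch as the replicate block was tried, beside 2 other pseudocounts, 2 other filters, 3 other scalings, 2 other variance models, 2 other thresholds and each library left out. No 2 libraries shared more than 60 of 13935 values, so each counted as 1 replicate. On data simulated for this comparison with 12405 genes, the limma step recovered 95% of 100 genes lowered by 1 and 51% of 100 lowered by 0.3 on the log2 scale, with 6 false calls. The lowered genes were drawn from those whose mean reached 5 TPM and were far fewer than the 4688 called in the deposited data. The shares recovered may therefore differ in the deposited data, and do not cover scarcer genes such as Dhx58.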

Additional observations from a re-analysis of the deposited data

How the results depend on the processing

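The 7 sensor genes that fell kept their direction and their side of the threshold in every alternative in which they were tested: Dhx58 lay below a filter of 5 TPM, where 6 were lower. With the replicate block 7 were lower and none higher, with adjusted p-values that changed no call of a sensor gene. No sensor gene was called higher, except that 0 to 1 was with single libraries left out (Mavs without Treg co-culture 1, Sting1 without control 1) and 2 were at an adjusted p of 0.1. Over all alternatives the log2 difference of Ddx58 ran from -0.57 to -0.49, of Ifih1 from -0.55 to -0.47, of Dhx58 from -0.72 to -0.52, of Zbp1 from -0.99 to -0.70, of Eif2ak2 from -0.37 to -0.33, of Trim25 from -0.30 to -0.27 and of Adar from -0.31 to -0.26. Mavs ran from 0.13 to 0.25 (adjusted p 0.0159 to 0.192), Sting1 from 0.11 to 0.24 (0.00960 to 0.259) and Tlr3 from -0.18 to -0.10 (0.138 to 0.508). At an adjusted p of 0.01, 1417 genes were lower and 1626 higher over all genes, and the replicate block gave 2123 and 2369. Il15, which was not called, changed sign without Treg co-culture 2 (0.032), without control 1 (0.032) and without control 3 (0.087), in a range of -0.32 to 0.087 over the libraries left out. The scalings tried moved the median of all genes by less than 0.1 on the log2 scale. The absence of depth limits what can be said of genes listed at 0.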
